A study of Mus musculus with 6 samples.

Results

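Yod1 and 9 genes whose proteins work with VCP or with the YOD1 protein were followed in the transcriptome of TCMK1 cells, a line of mouse renal tubular epithelium. The 10 genes were chosen by name (Yod1, Vcp, Nploc4, Ufd1, Plaa, Ubxn6, Ubxn1, Faf1, Ngly1 and Traf6), and each matched 1 row of the 28789 genes in the table. The study set 3 libraries of cells that overexpressed YOD1 and received angiotensin II (YOD1 + Ang II) against 3 libraries of control cells that also received angiotensin II (control + Ang II). Both groups therefore share the line and the peptide, and no untreated cells were part of the comparison. How YOD1 was introduced, which species its sequence came from, whether controls carried an empty vector and how the peptide was dosed are not stated in the labels. The design text gives the aim as a search for pathways under the control of YOD1.

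YOD1 is a deubiquitinase of the ovarian tumour (OTU) family that binds VCP through a ubiquitin-like domain at its amino terminus. VCP, also called p97, is a ring-shaped ATPase that pulls ubiquitinated proteins out of membranes and complexes and unfolds them, and YOD1 trims ubiquitin chains on such clients during export of misfolded proteins from the endoplasmic reticulum. With UBXN6 and PLAA, YOD1 also serves VCP in the clearance of damaged lysosomes, and in human cells YOD1 binds the ubiquitin ligase TRAF6 and restrains interleukin-1 signalling.

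The promoter windows of Yod1, Vcp and Nploc4 are shown because the groups did not overlap in these genes and each has a single window in the RefSeq table (Ubxn6 has 3). Each is the 250 bases before the annotated start, read 5′ to 3′ on the gene's strand, from RefSeq on GRCm38.p6. On either strand, capitals mark CCAAT (the CCAAT box), GGGCGG (the GC box) and TGACGTGG (the unfolded protein response element).
Yod1 (chr1:130717077-130717326, plus strand): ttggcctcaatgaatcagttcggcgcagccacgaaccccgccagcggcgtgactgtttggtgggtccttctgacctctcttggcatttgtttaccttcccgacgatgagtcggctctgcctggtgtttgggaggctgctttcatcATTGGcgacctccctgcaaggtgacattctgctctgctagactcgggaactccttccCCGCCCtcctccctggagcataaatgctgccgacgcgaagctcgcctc
Vcp (chr4:43000508-43000757, minus strand): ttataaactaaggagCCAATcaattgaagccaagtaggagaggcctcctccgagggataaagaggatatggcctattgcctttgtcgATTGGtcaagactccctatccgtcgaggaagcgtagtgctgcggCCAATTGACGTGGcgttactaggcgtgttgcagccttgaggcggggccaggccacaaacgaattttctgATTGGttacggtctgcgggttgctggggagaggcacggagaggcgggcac
Nploc4 (chr11:120437701-120437950, minus strand): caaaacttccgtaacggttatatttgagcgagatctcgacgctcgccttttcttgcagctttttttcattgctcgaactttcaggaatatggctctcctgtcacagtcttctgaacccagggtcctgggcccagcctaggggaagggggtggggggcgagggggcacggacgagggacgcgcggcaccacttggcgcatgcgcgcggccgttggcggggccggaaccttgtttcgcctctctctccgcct
Vcp had 4 matches to CCAAT, Yod1 had 1 and Nploc4 had 0. Among all 32851 promoter windows of this length, 33.8% held CCAAT. The unfolded protein response element occurred in the Vcp window and in 0.563% of all windows, and here it follows a CCAAT match directly. The GC box was found in 8 of the 12 windows of the 10 genes (6 genes) and in 32.7% of all windows. None of the 10 genes held the core of the interferon-stimulated response element (TTTC, any 2 bases, TTTC), present in 2.98% of all windows, and Plaa alone held the STAT-type element TTCNNNGAA, present in 7.02%. The TATA box (TATAAA) was in the windows of Vcp and Ufd1 and in 12.4% of all windows, and the E-box (CACGTG) in those of Faf1, Ubxn1 and Ubxn6 and in 6.02%. The ER stress response element (CCAAT, any 9 bases, CCACG) was in no member's window and in 0.113% of all windows. All 8 motifs were searched on both strands, and a match describes letters, not binding.

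Levels were compared in FPKM, fragment numbers scaled to transcript length and to the mapped fragments of each library, so genes can be set side by side per unit length. In YOD1 + Ang II libraries the order of mean levels was Ubxn1, Nploc4, Vcp, Ubxn6, Faf1, Ufd1, Yod1, Plaa, Traf6 and Ngly1. In control + Ang II libraries it was Ubxn1, Nploc4, Vcp, Ubxn6, Faf1, Ufd1, Plaa, Traf6, Ngly1 and Yod1. Yod1 thus held place 7 in YOD1 + Ang II cells and place 10 in control + Ang II cells, while the other 9 genes kept their order among themselves. In YOD1 + Ang II libraries the ranges of neighbours were separate down to Faf1, and from Faf1 to Ngly1 each gene overlapped the next. In control + Ang II libraries the overlapping neighbours were Ubxn1 with Nploc4, Faf1 with Ufd1, and Ngly1 with Yod1.

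**Figure D1:**
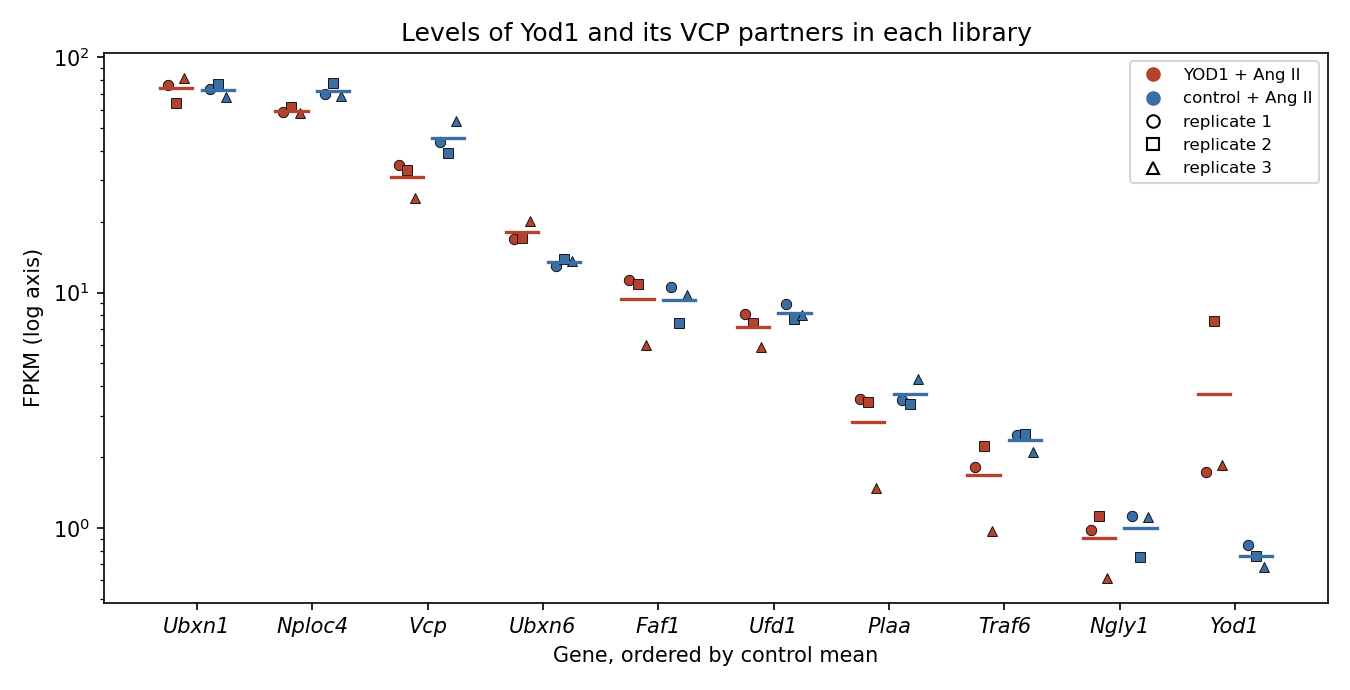
FPKM of the 10 genes (log axis) in each library, YOD1 + Ang II on the left of each pair and control + Ang II on the right; marker shapes are replicates and bars are group means. Yod1, Ubxn6, Vcp and Nploc4 have groups that do not overlap.

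The test was limma on log2(FPKM + 1), run on the 11483 genes that reached 1 FPKM in 3 or more of the 6 libraries. All 10 members passed that filter, Yod1 through the YOD1 + Ang II libraries alone, so its passing is not separate from its difference. None of the 10 passed the test at an adjusted p of 0.05 over all genes, where 55 of 11483 tested genes did (0.479%; 0.444% higher and 0.0348% lower). At an unadjusted p under 0.05, 2 members were higher and 2 lower, which is 4 of 10, against 20.9% of all tested genes (7.87% higher and 13.0% lower). At that unadjusted threshold 904 genes stood higher and 1494 lower, where median-ratio scaling of the libraries gave 1356 against 869, and length and GC correction 1312 against 1313. Those 4, Yod1, Ubxn6, Vcp and Nploc4, are also the members whose groups did not overlap, which held for 28.9% of all tested genes (9.77% with YOD1 + Ang II above and 19.1% below). The median log2 fold change of the 10 was -0.13, against -0.10 over all tested genes. The calls over all genes were 51 higher and 4 lower, and 26 and 7 after correction for transcript length and GC content.

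**Figure D2:**
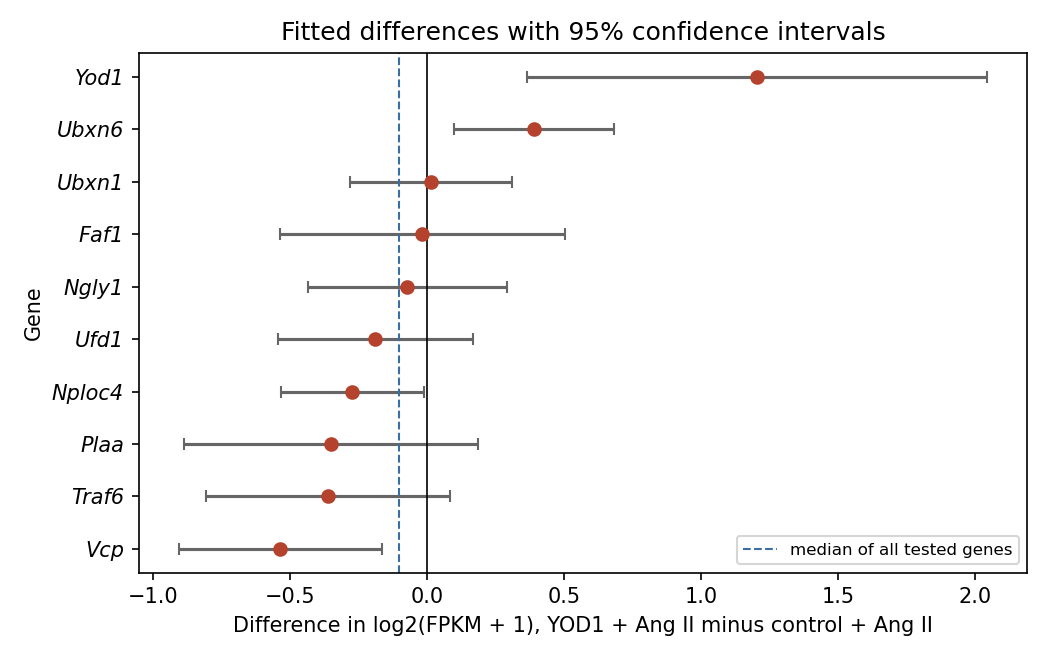
Fitted difference in log2(FPKM + 1), YOD1 + Ang II minus control + Ang II, for the 10 genes, with 95% confidence intervals from limma; the dashed line is the median of all tested genes (-0.10). The intervals of Yod1 and Ubxn6 lie above 0 and those of Vcp and Nploc4 below 0, before adjustment for the number of genes.

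Yod1 (ENSMUSG00000046404), the mouse gene of the overexpressed protein, had 1.73, 7.56 and 1.86 FPKM in YOD1 + Ang II libraries 1, 2 and 3, against 0.842, 0.757 and 0.684 FPKM in control + Ang II libraries 1, 2 and 3. All YOD1 + Ang II libraries were above all controls, and library 2 stood far above the other two. On the log2(FPKM + 1) scale the libraries lay 0.64, 2.28 and 0.70 above the control mean, and the fitted log2 fold change was 1.21 (SE 0.37, 95% interval 0.37 to 2.05, limma adjusted p = 0.141). Without YOD1 + Ang II library 2 it was 0.67 (limma adjusted p = 0.117), and with a pseudocount of 0.1 it was 1.81 (limma adjusted p = 0.134). The authors' deposited table gives Yod1 a q of 0.0310 and marks it as significant, as it does 286 of 28789 genes (0.993%), and it marks no other member.

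The table lists 1 Yod1 transcript, ENSMUST00000049813, which spans 6128 bp in GENCODE M21, of which 1029 bp (16.8%) are coding. FPKM divides fragments by transcript length, so fragments from an introduced coding sequence alone would be spread over the whole annotated length. Whether the introduced sequence maps to the mouse gene was not tested.

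Vcp (ENSMUSG00000028452), the ATPase itself, was lower in YOD1 + Ang II cells by a log2 fold change of -0.54 without passing the test. It had 34.8, 33.1 and 25.4 FPKM in YOD1 + Ang II libraries, against 43.7, 39.1 and 53.7 FPKM in control + Ang II libraries. Each YOD1 + Ang II library lay below each control, with library 3 the lowest and control 3 the highest. The means were 31.1 ± 5.04 FPKM in YOD1 + Ang II cells and 45.5 ± 7.47 FPKM in controls (SD, n = 3 each), with a 95% interval of the log2 fold change from -0.91 to -0.17 (limma adjusted p = 0.140). It lay between -0.64 and -0.40 over the 12 alternatives tried. Fewer cells that express a gene and less RNA per cell cannot be told apart in bulk samples.

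Nploc4 and Ufd1 encode the heterodimer that brings ubiquitinated clients to VCP. Nploc4 (ENSMUSG00000039703) had 58.9, 61.6 and 57.9 FPKM in YOD1 + Ang II libraries, against 70.1, 77.8 and 68.3 FPKM in control + Ang II libraries. The groups did not overlap, and the spread within YOD1 + Ang II was small (SD 1.95 FPKM, against 5.07 FPKM in controls). The log2 fold change was -0.27 (SE 0.12, 95% interval -0.53 to -0.01, limma adjusted p = 0.226), and it was -0.16 with median-ratio scaling of the libraries and -0.13 after length and GC correction. Ufd1 (ENSMUSG00000005262) had 8.10, 7.47 and 5.86 FPKM in YOD1 + Ang II libraries, against 8.96, 7.71 and 8.02 FPKM in control + Ang II libraries. Library 1 of YOD1 + Ang II lay within the controls and libraries 2 and 3 below them (log2 fold change -0.19, 95% interval -0.55 to 0.17, limma adjusted p = 0.500; -0.07 without YOD1 + Ang II library 3 and -0.09 with median-ratio scaling).

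Per unit length, the transcript of Nploc4 exceeded that of its partner Ufd1 in every library. The ratio of Nploc4 to Ufd1 was 8.46 ± 1.31 in YOD1 + Ang II libraries and 8.81 ± 1.17 in control + Ang II libraries (SD, n = 3 each). A ratio within a library does not depend on a factor common to all its genes. It can still carry the trend with transcript length given below, for which the ratios here were not corrected. The longest annotated transcripts of Vcp and Ufd1 span 3316 and 2078 bp. Vcp over Ufd1 was 4.30, 4.44 and 4.33 in YOD1 + Ang II libraries, against 4.87, 5.08 and 6.70 in control + Ang II libraries, without overlap, as in Vcp alone. Nploc4 over Vcp overlapped, at 1.69, 1.86 and 2.28 in YOD1 + Ang II libraries, against 1.61, 1.99 and 1.27 in controls. The share of all gene pairs whose ratios do not overlap was not counted. Vcp over Yod1 was 20.1, 4.38 and 13.7 in YOD1 + Ang II libraries, against 51.8, 51.6 and 78.6 in controls. Vcp thus had the higher FPKM of the pair in each library. How far the Yod1 FPKM counts an introduced sequence was not tested. With 3 libraries a group, the smallest two-sided p that an exact permutation test allows is 0.1, so none is given for these ratios.

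Ubxn6 and Plaa encode the cofactors that act with YOD1 and VCP at damaged lysosomes. The groups did not overlap in Ubxn6 and overlapped in Plaa. Ubxn6 (ENSMUSG00000019578) had 17.0, 17.1 and 20.2 FPKM in YOD1 + Ang II libraries, against 13.0, 13.9 and 13.6 FPKM in control + Ang II libraries. All YOD1 + Ang II libraries were above all controls, with library 3 the highest. The log2 fold change was 0.39 (SE 0.13, 95% interval 0.10 to 0.68, limma adjusted p = 0.159), and it lay between 0.31 and 0.50 over the 12 alternatives. Plaa (ENSMUSG00000028577) had 3.54, 3.44 and 1.48 FPKM in YOD1 + Ang II libraries, against 3.50, 3.35 and 4.30 FPKM in control + Ang II libraries. Libraries 1 and 2 of YOD1 + Ang II lay within the controls and library 3 far below them (log2 fold change -0.35, limma adjusted p = 0.401; -0.07 without YOD1 + Ang II library 3).

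Ubxn1 and Faf1 encode further cofactors with a UBX domain, the fold that docks on VCP, and FAF1 also binds ubiquitinated clients of the UFD1-NPLOC4 heterodimer. Ubxn1 (ENSMUSG00000071655) was the most abundant of the 10 transcripts, with 76.1, 63.9 and 81.8 FPKM in YOD1 + Ang II libraries, against 73.7, 76.8 and 68.2 FPKM in control + Ang II libraries. The groups overlapped throughout, and the 95% interval of the log2 fold change, from -0.28 to 0.31, took in 0 near its middle (limma adjusted p = 0.957). Set against Ubxn6 in the same library, Ubxn1 was 4.48, 3.74 and 4.04 times as abundant in YOD1 + Ang II libraries and 5.66, 5.51 and 5.0 times in control + Ang II libraries. These ratios did not overlap, as Ubxn6 alone did not. Faf1 (ENSMUSG00000010517) had 11.3, 10.8 and 5.99 FPKM in YOD1 + Ang II libraries, against 10.6, 7.47 and 9.78 FPKM in control + Ang II libraries. Libraries 1 and 2 of YOD1 + Ang II stood above every control and library 3 below every control, so the fitted log2 fold change of -0.02 (limma adjusted p = 0.972) averages values of opposite sign; it was 0.25 without YOD1 + Ang II library 3.

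Ngly1, the cytosolic glycanase that strips N-glycans from exported glycoproteins, and Traf6, the ligase that builds chains in interleukin-1 and Toll-like receptor signalling, were both low. Ngly1 (ENSMUSG00000021785) had 0.980, 1.13 and 0.615 FPKM in YOD1 + Ang II libraries, against 1.12, 0.754 and 1.12 FPKM in control + Ang II libraries, and it reached 1 FPKM in only 3 libraries. Its groups overlapped (log2 fold change -0.07, 95% interval -0.43 to 0.29, limma adjusted p = 0.813). Traf6 (ENSMUSG00000027164) had 1.81, 2.24 and 0.966 FPKM in YOD1 + Ang II libraries, against 2.49, 2.51 and 2.10 FPKM in control + Ang II libraries. Libraries 1 and 3 of YOD1 + Ang II lay below all controls and library 2 above the lowest control. The log2 fold change was -0.36 (95% interval -0.81 to 0.08, limma adjusted p = 0.310), -0.16 without YOD1 + Ang II library 3 and -0.08 after length and GC correction.

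**Figure D3:**
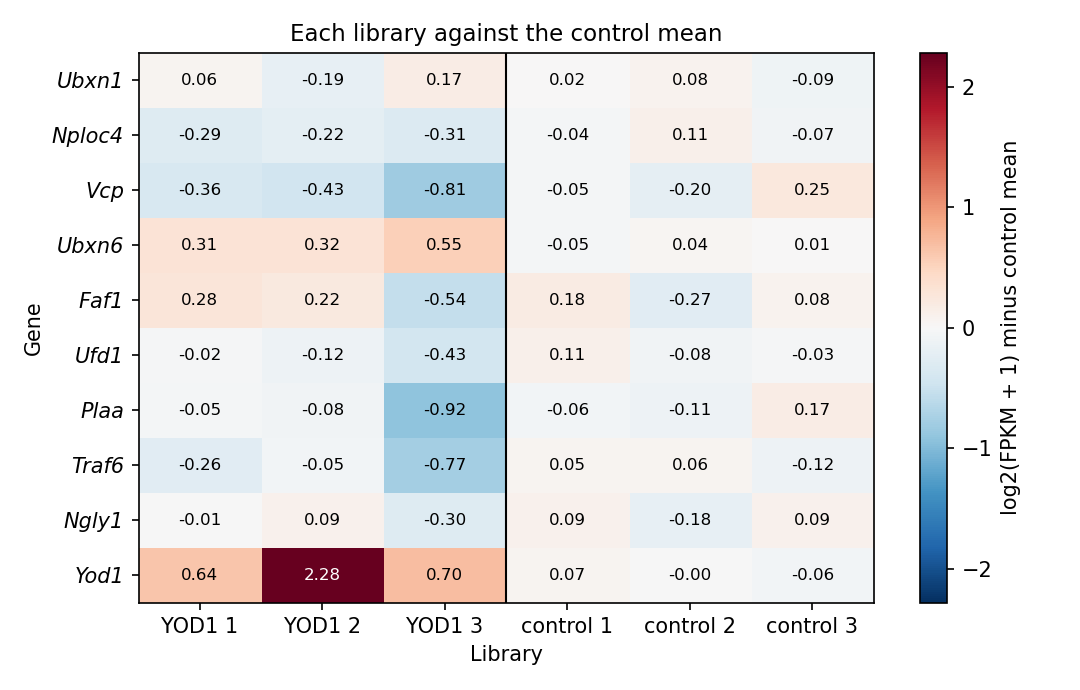
Difference of each library from the control mean, in log2(FPKM + 1), for the 10 genes, YOD1 + Ang II libraries left of the line and controls right of it. YOD1 library 2 stands out in Yod1 (2.28), and YOD1 library 3 has the lowest value of all 6 libraries in Vcp (-0.81), Plaa (-0.92), Traf6 (-0.77), Faf1 (-0.54), Ufd1 (-0.43), Nploc4 (-0.31) and Ngly1 (-0.30).

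YOD1 + Ang II library 3 held the lowest value of the 6 libraries in 7 of the 10 genes and the highest in Ubxn6 and Ubxn1. The same library stood apart in a trend with transcript length over all tested genes. For this trend, the log2 value of each gene in a library was set against that gene's mean over the 6 libraries. The median deviation of the shortest 10% of transcripts (up to 925 bp) was compared with that of the longest 10% (from 6185 bp). The shortest minus the longest was 0.20, -0.10 and 0.53 in YOD1 + Ang II libraries 1, 2 and 3. In controls 1, 2 and 3 it was -0.11, -0.25 and -0.21. The longest annotated transcripts of the members ran from 2078 bp (Ufd1) to 6169 bp (Traf6), and the median over tested genes was 3018.5 bp. The part of this trend in the members' values was tested only through the length and GC correction. Under it Vcp had a log2 fold change of -0.45, Ubxn6 of 0.48 and Yod1 of 1.51, none past the threshold (limma adjusted p of 0.113, 0.0809 and 0.0757). Nploc4 moved from -0.27 to -0.13, Ufd1 from -0.19 to -0.15, Plaa from -0.35 to -0.15 and Traf6 from -0.36 to -0.08. Ubxn1 moved from 0.01 to 0.06, while Faf1 and Ngly1 changed sign, to 0.18 and 0.11.

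Among the 6929 tested genes with a mean of at least 5 FPKM, the 5 whose log2(FPKM + 1) values followed Yod1 most closely over the 6 libraries were Tor3a, Igtp, Trir, Oas3 and Oasl1, with Pearson r from 0.982 to 0.997. Tor3a encodes a torsin-family ATPase, Igtp an interferon-inducible GTPase, and Oas3 and Oasl1 members of the oligoadenylate synthetase family. Tor3a had 17.4, 54.3 and 18.2 FPKM in YOD1 + Ang II libraries, against 12.9, 11.6 and 12.1 FPKM in control + Ang II libraries. Oas3 had 3.76, 33.3 and 4.77 FPKM in YOD1 + Ang II libraries, against 0.844, 1.24 and 1.82 FPKM in control + Ang II libraries. As in Yod1, library 2 stood high above libraries 1 and 3 in all 5 genes, and each r takes in that library's high value. The 5 genes were picked for their r with Yod1, so this likeness follows from the choice. None of the 5 passed the test over all genes (limma adjusted p from 0.115 to 0.224). Among the members, r with Yod1 ranged from -0.56 for Nploc4 to 0.57 for Ubxn6.

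**Figure D4:**
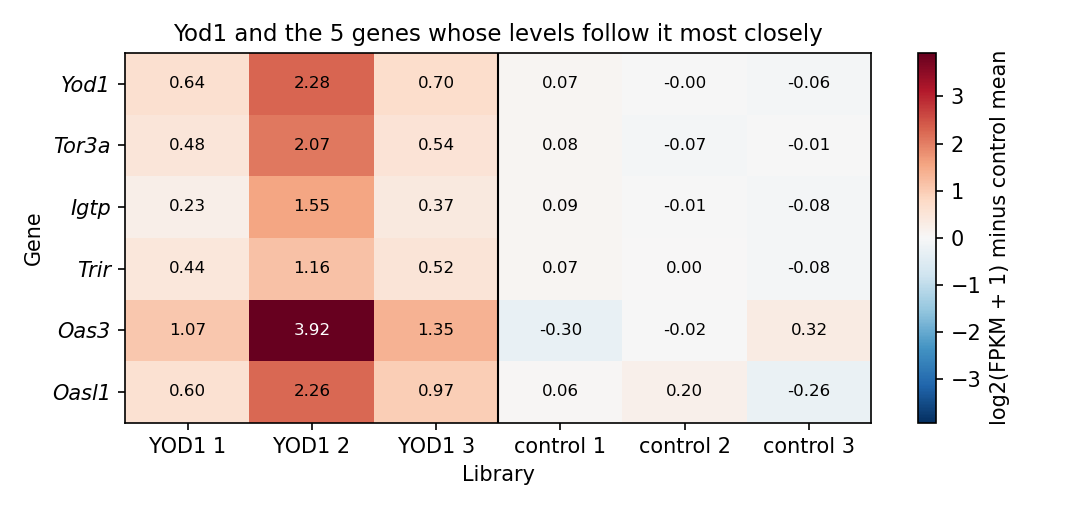
Difference of each library from the control mean, in log2(FPKM + 1), for Yod1 and the 5 genes with the highest Pearson r to it over 6 libraries. All 6 genes have their highest value in YOD1 library 2, which for the 5 follows from their choice by r.

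The genes were chosen by name for their work with VCP or YOD1, so shared annotation of that kind follows from the choice. Annotation terms in the deposited table were shared as follows. The complex of VCP, NPL4 and UFD1 was listed for 5 members (Faf1, Nploc4, Ubxn1, Ufd1 and Vcp) among 7 tested genes, and ubiquitin-dependent ERAD, the degradation of proteins exported from the endoplasmic reticulum, for 5 (Faf1, Nploc4, Ufd1, Vcp and Yod1) among 64. Macroautophagy was listed for Plaa, Ubxn6, Vcp and Yod1, among 39 tested genes, and binding to ubiquitin ligases for 6 members, Traf6 and Yod1 among them.

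The other genes of these pathways were taken from 5 lists, and 0 of their tested genes passed over all genes in limma. For comparison with the list counts below, 7.87% of all tested genes were higher and 13.0% lower at an unadjusted limma p under 0.05. The median log2 fold change of all tested genes was -0.10. Among 12 tested cofactors of VCP, most with a UBX domain, 2 were higher and 1 lower at an unadjusted p under 0.05, and the median log2 fold change was -0.05. That median changed sign with the processing, at 0.04 without YOD1 + Ang II library 3, and 0.06 both with median-ratio scaling and after length and GC correction. Vcpkmt, the methyltransferase that modifies VCP, stood at 3.97 ± 1.42 FPKM in YOD1 + Ang II cells and 1.96 ± 0.31 FPKM in controls (SD, n = 3 each), above in every library (log2 fold change 0.71, limma adjusted p = 0.148). Without YOD1 + Ang II library 3 it passed (log2 fold change 0.97, limma adjusted p = 0.0182). That setting called 107 genes higher and 25 lower over all tested genes, against 51 and 4 with all libraries. Ubxn8 and Ubxn4, which tether VCP at the endoplasmic reticulum, had log2 fold changes of -0.33 and -0.45, and Selenos, a selenoprotein of the same membrane, had 0.35 (limma adjusted p from 0.213 to 0.259).

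The OTU-family deubiquitinases, the relatives of Yod1, had 1 gene higher and 1 lower at an unadjusted p under 0.05 among 13 tested. Their median was -0.21, and 0.0042 after length and GC correction. Otub2 stood at 12.8 ± 1.48 FPKM in YOD1 + Ang II cells and 8.75 ± 2.13 FPKM in controls, and Otud7b at 6.57 ± 2.13 and 9.60 ± 0.69 FPKM in the same order (SD, n = 3 each). Neither passed over all genes (limma adjusted p = 0.169 and 0.216). Otud6b and Otud4 had log2 fold changes of -0.42 and -0.51 (limma adjusted p = 0.263 and 0.280).

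Of 22 tested genes of ER dislocation and VCP-linked ERAD, 2 were higher and 4 lower at an unadjusted p under 0.05. Their median was -0.17, and 0.012 after length and GC correction. Syvn1, the ligase HRD1, stood at 23.8 ± 1.57 FPKM in YOD1 + Ang II cells and 33.9 ± 2.86 FPKM in controls (SD, n = 3 each). Its log2 fold change was -0.49 (limma adjusted p = 0.114). Its stabilising partner Sel1l had -0.40, as did the chain-extending ligase Ube4b, and Aup1, which recruits a ubiquitin-conjugating enzyme, had 0.39 (limma adjusted p from 0.146 to 0.207). The groups of these 4 genes did not overlap, which held for 7 of the 22 (31.8%), against 28.9% of all tested genes.

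Among 14 tested genes of the response to damaged lysosomes, 2 were higher and 2 lower at an unadjusted p under 0.05, with a median of -0.14. Trim16, a ligase recruited to damaged lysosomes, stood at 2.78 ± 0.44 FPKM in YOD1 + Ang II cells and 4.49 ± 0.47 FPKM in controls, and Wipi2, an early autophagy factor, at 30.4 ± 0.86 and 23.7 ± 3.13 FPKM in the same order (SD, n = 3 each). The autophagy receptor Tax1bp1 had a log2 fold change of -0.49 and the galectin Lgals9 of 0.49. None of the 4 passed (limma adjusted p from 0.132 to 0.238).

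Among 18 tested partners of TRAF6, none was higher and 2 were lower at an unadjusted p under 0.05, against 13.0% of all tested genes that were lower. The median log2 fold change was -0.25, at -0.13 without YOD1 + Ang II library 3 and -0.14 after length and GC correction, and 14 of 18 lay below 0, against 7307 of 11483 tested genes. Ube2n, the conjugating enzyme that builds lysine-63 chains with TRAF6, stood at 6.95 ± 0.76 FPKM in YOD1 + Ang II cells and 11.1 ± 0.98 FPKM in controls (SD, n = 3 each). Its log2 fold change was -0.61 (limma adjusted p = 0.1002). UBE2N's cofactor Ube2v1 had -0.27, the adaptor Traf3 -0.50 and the kinase Irak2 -0.34 (limma adjusted p from 0.210 to 0.254). In these 4 genes every YOD1 + Ang II library lay below every control. The groups did not overlap in 5 of the 18 (27.8%), all 5 with YOD1 + Ang II below. Of all tested genes, 19.1% lay below in this way and 9.77% above (28.9% in either direction). The medians of the 5 lists in YOD1 + Ang II library 3 ranged from -0.37 to -0.19, against -0.18 over all tested genes in that library.

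**Figure D5:**
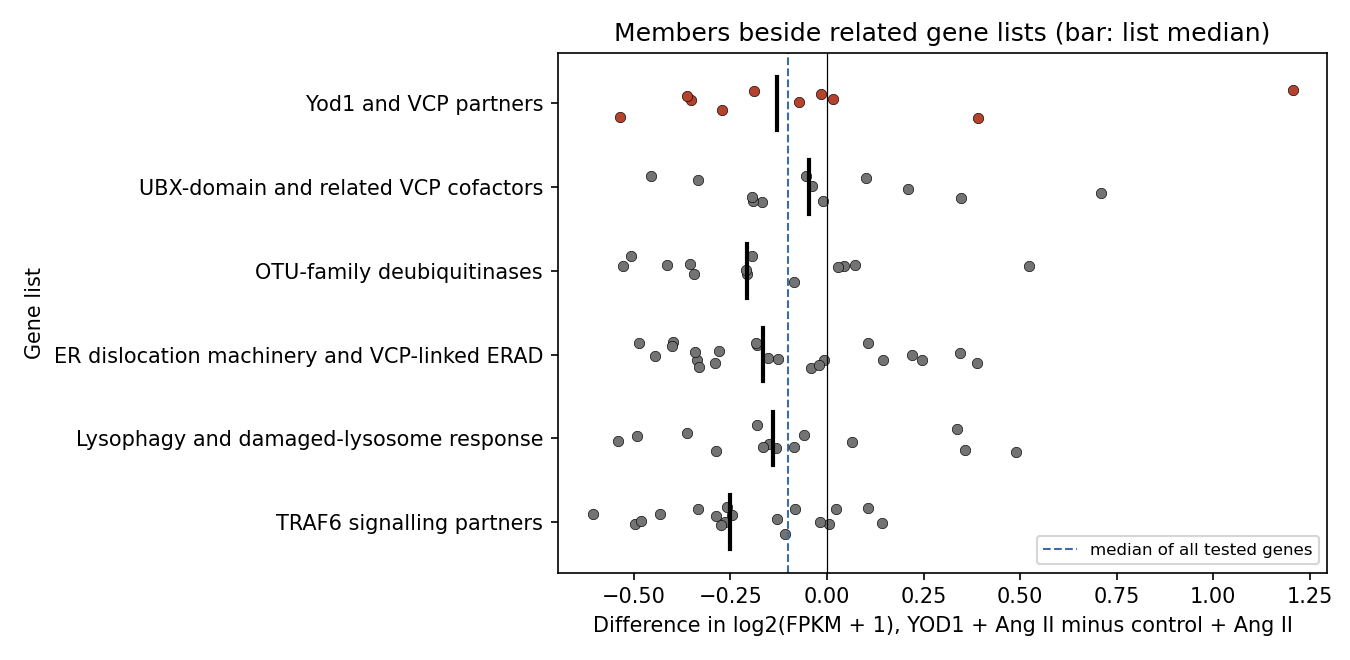
Fitted differences in log2(FPKM + 1), YOD1 + Ang II minus control + Ang II, of the 10 genes (top row) and of the tested genes in 5 related lists; black bars are list medians and the dashed line is the median of all tested genes. Yod1 at 1.21 is the rightmost point, and the other genes lie between -0.61 and 0.71.

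Each library had values above 0 for 22045 to 23374 genes and an FPKM sum of 314172 to 352209, with read depth unknown. The labels name replicates without stating separate cultures, so the spread between them may be technical. The transcript Rn18s-rs5, related to ribosomal RNA, took 2.17% to 3.90% of the FPKM sum in YOD1 + Ang II libraries and 0.421% to 0.733% in controls, and its part in the members' values was not tested. Of the renal epithelial markers, 10 of the 13 in the table reached 1 FPKM in 3 or more libraries, Krt18, Pax8 and Epcam among them, while the proximal tubule transporter Slc34a1 was below 1 FPKM throughout. Their summed level was 805 to 1061 FPKM in YOD1 + Ang II libraries and 736 to 850 FPKM in controls. Most of that sum was Krt18, a keratin, with means of 681 FPKM in YOD1 + Ang II cells and 528 FPKM in controls. Pax8, a renal lineage factor, went the other way without overlap, at 26.8 FPKM in YOD1 + Ang II cells and 37.1 FPKM in controls (log2 fold change -0.45, limma adjusted p = 0.1198), and its part in the members' values was not tested. All 5 endothelial markers were below 1 FPKM in every library (sums of 1.43 to 2.29 FPKM in YOD1 + Ang II libraries and 0.791 to 1.46 FPKM in controls). So were 4 of the 6 immune markers in the table, Ptprc included, and 3 of 6 fibroblast markers. The other 2 immune and 3 fibroblast markers reached 1 FPKM in 3 or more libraries. In the same order, the sums were 17.3 to 19.8 and 17.8 to 27.4 FPKM for immune markers. For fibroblast markers they were 6.13 to 12.9 and 12.0 to 14.3 FPKM. Mean FPKM in YOD1 + Ang II cells and controls was 6.42 and 7.99 for Col1a1. It was 2.06 and 3.08 for Pdgfrb, whose groups did not overlap.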

How the data were processed

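Poly(A) RNA of 6 TCMK1 samples was sequenced in paired ends, per the labels' protocols. The authors deposited FPKM for each gene in each library in 1 table, per the file headers. The deposited table also gives their ratio of both group means, the log2 of that ratio, a p-value and a q-value. Bowtie 0.12.2, HISAT2 2.0 and StringTie 1.3.0 appear in the submitters' processing notes beside the build mm8, without their roles. The authors' test and the library strand are not given in the sources used here. Read depth is unknown from FPKM.

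Genes that reached 1 FPKM in 3 or more of the 6 libraries were compared on log2(FPKM + 1) with limma 3.58.1 in R 4.3.3 (moderated variances with a trend, two-sided, Benjamini-Hochberg adjustment over 11483 genes). Fold changes on this scale understate those of low genes. The procedure was run on simulated data with independent noise for each gene. Those data held no trend with transcript length, so they cannot show the effect of one. The members and lists were chosen with earlier results of these data known. Beside the members, the text names for each list the up to 4 genes of lowest p, and the 5 genes of at least 5 FPKM with the highest r to Yod1. Transcript lengths and GC content came from GENCODE M21, which matched 99.2% of tested genes, and promoter windows from RefSeq. Both rest on GRCm38, so no coordinates are given for the deposited values. The deviations of same-numbered libraries had r of 0.30, -0.12 and -0.11. The labels state no pairing, so replicate numbers were not treated as pairs in the main fit. Alternatives were a pseudocount of 0.1, no filter, a filter at 5 FPKM, the replicate number as a block, median-ratio scaling, length and GC correction with splines (4 degrees of freedom) and each library left out. Python 3.11.15 with pandas 2.3.3 and matplotlib 3.10.9 was used for summaries and plots.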

Additional observations from a re-analysis of the deposited data

How the results depend on the processing

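None of the 10 members passed the limma threshold under any alternative in which it was tested, and 0 were called in each. At the 5 FPKM filter Yod1, Plaa, Ngly1 and Traf6 were not tested. Yod1, Ubxn6, Vcp, Nploc4, Ufd1, Plaa and Traf6 kept their direction in every alternative run. With 1 library left out, Ubxn1 ranged over -0.061 to 0.115, Faf1 over -0.163 to 0.247 and Ngly1 over -0.163 to 0.043. Faf1 was 0.083 with median-ratio scaling and 0.18 after length and GC correction, and Ngly1 was 0.11 after that correction. The cause of these changes of sign was not tested.

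Over all genes, 51 were called higher and 4 lower. Without a filter limma called 0 and 0, with 3427 genes at an unadjusted p under 0.05. The replicate block gave 33 and 8, with no call among the members. The labels do not say whether same-numbered libraries were paired, and the cause of the change in these counts was not tested. Median-ratio scaling gave 160 and 9, and length and GC correction 26 and 7. Leaving out 1 library gave 17 to 145 higher (17 without control 2, 145 without control 3) and 1 to 97 lower (1 without YOD1 + Ang II library 1 or control 1, 97 without control 3).

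The median of all tested genes was -0.10, and it was -0.010 without a filter, -0.0080 with median-ratio scaling and -0.016 after length and GC correction. The median of the OTU family was 0.029 at the 5 FPKM filter and 0.0042 after length and GC correction. After that correction the ERAD median was 0.012, and with median-ratio scaling the median of the damaged-lysosome list was -0.049. The median of the VCP cofactors, -0.05, was 0.059 with median-ratio scaling, 0.059 after length and GC correction and -0.12 to 0.042 with 1 library left out. Calls in the list of VCP cofactors numbered 0 to 1 when 1 library was left out, the 1 being Vcpkmt without YOD1 + Ang II library 3. Unknown depth limits what can be said of the low members Ngly1, Yod1 and Traf6.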
